A study of Mus musculus with 6 samples.

Results

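The annexin genes were followed in the hearts of mice that received angiotensin II (Ang II) with or without tectochrysin (Tec), a flavonoid. The 9 members were Anxa1, Anxa2, Anxa3, Anxa4, Anxa5, Anxa6, Anxa7, Anxa8 and Anxa11, taken by name from a table of 30914 genes, and each name matched 1 row. RNA came from 6 hearts, 3 with Ang II and 3 with Ang II + Tec, which are called Ang II hearts 1 to 3 and Tec hearts 1 to 3 after their replicate numbers. All 6 mice were wild-type C57BL/6J males, 8 weeks old when obtained. All carried an osmotic pump through which Ang II ran for 4 weeks at a dose of 1 μg/kg/min. The Ang II + Tec group was also given Tec at 5 mg/kg over the last 2 of those weeks. Hearts without Ang II were not analysed here, so each difference below sets Ang II with Tec against Ang II alone and says nothing of a heart without Ang II. Levels are FPKM, the number of fragments of a gene relative to its transcript length and to the fragments of the whole library, and may be set side by side between genes.

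Annexins are cytosolic proteins that bind negatively charged phospholipids, phosphatidylserine above all, when calcium rises. Each is built of a conserved core of repeated domains, which carries the calcium sites, and of a short amino-terminal tail that differs between members and docks partners such as the S100 proteins. In the heart they are known from cardiomyocytes, fibroblasts, endothelium and leukocytes, where they take part in membrane repair, vesicle traffic, clotting and the resolution of inflammation.

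Transcripts of heart muscle were abundant in every library. The summed FPKM of 11 ventricular cardiomyocyte genes was 14868 to 19123 in the Ang II hearts and 16366 to 18502 in the Tec hearts. The mitochondrial genome contributed 40.1% to 48.9% of the FPKM of Ang II hearts and 49.6% to 52.5% of the FPKM of Tec hearts. Atrial transcripts were unevenly spread over the libraries. The atrial myosin light chain Myl7 was at 419, 332 and 1040 FPKM in Ang II hearts 1 and 2 and Tec heart 2, against 0, 0 and 1.58 in Ang II heart 3 and Tec hearts 1 and 3, and the 5 atrial genes examined (Myl7, Myl4, Sln, Nppa and Bmp10) were all higher in the first 3 libraries than in the other 3. The labels name the whole sample as heart and do not say which chambers it held. In such bulk samples fewer cells of a type and less RNA per cell cannot be told apart.

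Anxa6 and Anxa5 were the most abundant annexin transcripts of these hearts and Anxa8 the least. Over the 6 libraries the mean level was 50.3 FPKM for Anxa6, 41.6 for Anxa5, 22.8 for Anxa2, 15.2 for Anxa1, 13.0 for Anxa7, 7.74 for Anxa3, 5.50 for Anxa4, 5.40 for Anxa11 and 0.910 for Anxa8. In this order Anxa5 lay above Anxa2, Anxa2 above Anxa1, Anxa7 above Anxa3, Anxa3 above Anxa4 and Anxa11 above Anxa8 in each of the 6 libraries. Other neighbours changed places. Anxa1 lay above Anxa7 in 2 of the 6 libraries, with a mean log2 difference in FPKM of -0.047 (SD 0.71), and Anxa4 above Anxa11 in 2, with -0.028 (SD 0.38), so neither pair differed beyond its spread. Anxa6 lay above Anxa5 in 5 of the 6 libraries, with 0.32 (SD 0.27). Of the related genes outside the 9, Anxa9 and Anxa13 were at 0.12 to 0.75 and at 0.23 to 0.59 FPKM.

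**Figure D1:**
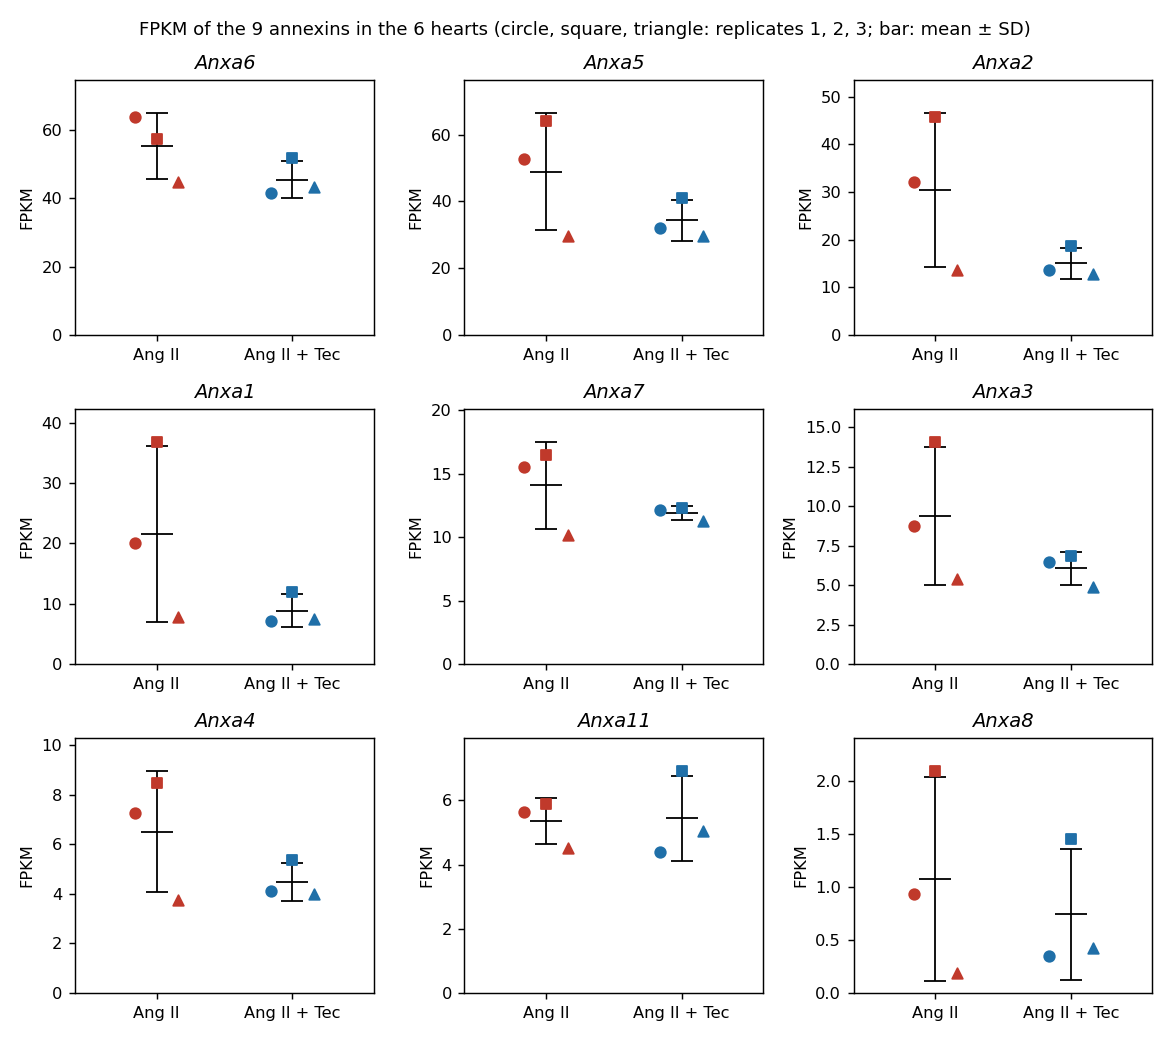
FPKM of the 9 annexins, 1 panel per gene in order of abundance, in 3 Ang II hearts (red) and 3 Ang II + Tec hearts (blue), each vertical axis starting at 0. Horizontal ticks and bars are the mean ± SD; in every panel Ang II heart 3 (triangle) is the lowest of its group and lies at or below the highest Ang II + Tec heart, which is replicate 2 (square).

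None of the 9 genes was called different between the groups, and each gene's groups overlapped. The test was limma on the 13089 genes that reached 0.5 FPKM in 3 or more libraries, and a call needed a Benjamini-Hochberg adjusted p-value below 0.05 together with a log2 fold change of 1 or more in either direction. Of these genes 0.16% were called, and 0.183% when the fold change was left aside. All 9 annexins passed the limit on FPKM, Anxa8 only through the 3 libraries with atrial transcripts. Their limma adjusted p-values lay between 0.298 and 0.980, and 0 of 9 had an unadjusted p-value under 0.05, against 18.6% of all genes tested. That count depended on the fit, and was 4 of 9 with a replicate block, against 25.3% of all genes tested, and 8 of 9 with library weights, against 46.4%. The estimate of these weights stopped before its convergence tolerance. Non-overlapping groups were found for 0 of the 9, against 21.8% of all genes tested. On the scale of log2(FPKM + 1), 8 of the 9 were lower in the Tec hearts, with a median log2 fold change of -0.40, where 80% of all genes tested were lower with a median of -0.17. Scaling each library by its median ratio to the geometric mean of all 6 moved the median of all genes to 0.0087, and then 7 of the 9 were lower, with a median of -0.19, where 48.2% of all genes tested were lower.

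The largest differences were those of Anxa1 and Anxa2, a pair with well-studied amino-terminal tails. Anxa1 (ENSMUSG00000024659, GRCm38 chromosome 19 from 20373428 to 20390944 on the minus strand) encodes a protein induced by glucocorticoids that leukocytes release and that limits neutrophil recruitment through formyl peptide receptors. It was at 20.03, 36.8 and 7.72 FPKM in Ang II hearts 1, 2 and 3 and at 7.18, 11.96 and 7.41 in Tec hearts 1, 2 and 3. Ang II hearts 1 and 2 stood above every other heart, whereas Ang II heart 3 lay inside the range of the Tec hearts. The means were 21.5 ± 14.6 (SD, n = 3) and 8.85 ± 2.70 (SD, n = 3), and the log2 fold change was -0.99 (standard error 0.49, limma adjusted p-value 0.309). The exact two-sided permutation test of Anxa1 alone gave a p-value of 0.2, where 0.1 is the smallest that 3 hearts against 3 allow.

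Anxa2 (ENSMUSG00000032231, chromosome 9 from 69453620 to 69491795 on the plus strand) encodes the annexin that pairs with S100A10 at the cell surface, where the complex binds plasminogen and its activator. Its level was 32.1, 45.7 and 13.6 FPKM in the Ang II hearts and 13.6, 18.8 and 12.8 FPKM in the Tec hearts. The order of the hearts was close to that of Anxa1, with Ang II hearts 1 and 2 on top and Tec heart 2 next. The means were 30.45 ± 16.1 (SD, n = 3) and 15.1 ± 3.23 (SD, n = 3), a log2 fold change of -0.83 with a standard error of 0.40 (limma adjusted p-value 0.298, the lowest of the 9).

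Sequences upstream of the start were compared between members. RefSeq promoters on GRCm38.p6 were at hand for 7 of the 9 genes, all but Anxa3 and Anxa6. Windows of the 250 bases before the start were searched on both strands for 7 motifs. The core promoter motifs were the TATA box, spelled TATAAA, the GC box, spelled GGGCGG, and the CCAAT box. The motifs of regulated factors were AP-1, spelled TGANTCA, a single arm of the paired site of the glucocorticoid receptor, spelled TGTTCT, the E-box, spelled CACGTG, and NF-kB, which begins with GGGA and ends with CC after 4 free bases. Of these 7 genes, Anxa1 and Anxa2 were those with TATAAA in this window, which 12.4% of the 32851 promoters of this length held. The TATAAA began at -32 in Anxa1 and at -17 in Anxa2, counted from the RefSeq start. In both genes GENCODE M21 places an exon over this stretch, so short pieces are shown, with every motif found in capitals.
Anxa1, chr19:20390686-20390715, minus strand: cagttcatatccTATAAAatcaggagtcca
Anxa2, chr9:69453654-69453682, plus strand: ggatgGGGCGGgTATAAAagccccaccca

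Anxa2 held GC boxes at -190, -48 and -24 and a match to AP-1 at -95, a motif present in 6.75% of all promoters. Anxa4 held a match to the NF-kB motif at -55 from the first of its RefSeq starts and Anxa1 another at -197, where 17.6% of all promoters held one. Anxa11, the member with the smallest difference, held 3 GC boxes (read as CCGCCC on its own strand) and none of the other motifs, where 32.7% of all promoters held a GC box. Anxa7, with a pair of RefSeq starts whose windows overlap, held a GC box at -8 from the first start. The same site lies at -200 from the other start. From that other start Anxa7 also held GC boxes at -71, -57 and -28 and an E-box at -113, where 6.02% of all promoters held an E-box. The other start of Anxa4 had this TGTTCT arm at -199 and -18, a motif in 16.1% of all promoters. None of the 7 genes held the CCAAT box, which 33.8% of all promoters held. The bases before the first annotated exon are printed for Anxa2, Anxa4, Anxa11 and, as a member in which none of the 7 motifs was found, Anxa5, with motifs in capitals. A match describes these letters only.
Anxa2, chr9:69453433-69453619, plus strand: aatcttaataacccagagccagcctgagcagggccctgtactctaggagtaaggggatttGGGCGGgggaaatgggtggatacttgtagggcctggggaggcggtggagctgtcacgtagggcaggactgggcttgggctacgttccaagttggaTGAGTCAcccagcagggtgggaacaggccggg
Anxa4, chr6:86793585-86793834, minus strand: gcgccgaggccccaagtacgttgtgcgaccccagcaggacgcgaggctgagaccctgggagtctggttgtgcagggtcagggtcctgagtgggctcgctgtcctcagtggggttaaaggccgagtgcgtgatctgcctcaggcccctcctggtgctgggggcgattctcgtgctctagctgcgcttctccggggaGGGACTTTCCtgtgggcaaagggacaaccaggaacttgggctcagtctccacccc
Anxa5, chr3:36475895-36476137, minus strand: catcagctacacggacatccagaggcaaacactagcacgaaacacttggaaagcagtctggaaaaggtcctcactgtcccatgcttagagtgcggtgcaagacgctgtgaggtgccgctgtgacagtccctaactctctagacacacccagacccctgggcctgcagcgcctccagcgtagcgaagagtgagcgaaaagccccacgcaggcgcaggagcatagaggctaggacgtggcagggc
Anxa11, chr14:25841905-25842154, plus strand: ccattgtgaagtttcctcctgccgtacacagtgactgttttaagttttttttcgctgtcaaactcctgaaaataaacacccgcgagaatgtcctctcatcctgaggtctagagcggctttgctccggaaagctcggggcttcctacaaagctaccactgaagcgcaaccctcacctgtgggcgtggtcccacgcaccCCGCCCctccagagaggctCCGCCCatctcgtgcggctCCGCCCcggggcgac

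Anxa3, Anxa4 and Anxa5 differed less than Anxa1 and Anxa2 and in the same direction. Anxa5 (ENSMUSG00000027712, chromosome 3 from 36448923 to 36475894) encodes the phosphatidylserine-binding protein used as a probe for dying cells. It measured 52.8, 64.2 and 29.7 FPKM in the Ang II hearts and 31.97, 41.1 and 29.8 in the Tec hearts. Ang II heart 3 was the lowest of all 6 hearts by a narrow margin. The means were 48.9 ± 17.5 (SD, n = 3) and 34.3 ± 6.01 (SD, n = 3), a log2 fold change of -0.44 with a standard error of 0.28 (limma adjusted p-value 0.382), and of -0.20 under scaling by median ratios.

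Anxa4 (ENSMUSG00000029994, chromosome 6 from 86736840 to 86793584), a member known from secretory and epithelial cells, was at 7.28, 8.49 and 3.77 FPKM with Ang II and at 4.10, 5.36 and 3.99 FPKM with Ang II + Tec. Its profile over the libraries was the closest to that of another member among all pairs of annexins: after each gene was centred on its own mean, Anxa4 and Anxa5 differed by a root mean square of 0.046 on the log2 scale. The log2 fold change of Anxa4 was -0.40 (standard error 0.26, limma adjusted p-value 0.390), or -0.19 under scaling by median ratios.

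Anxa3 (ENSMUSG00000029484, chromosome 5 from 96793339 to 96845966), which is abundant in neutrophils, was at 8.73, 14.1 and 5.40 FPKM with Ang II and at 6.47, 6.87 and 4.89 FPKM with Ang II + Tec. The difference rested mostly on Ang II heart 2. The log2 fold change was -0.48 (standard error 0.30, limma adjusted p-value 0.380) and came to -0.17 without that heart and to -0.26 under scaling by median ratios. Neutrophil transcripts were at or near 0 in these libraries: Ly6g was listed at 0 in all 6, and the summed FPKM of the 6 neutrophil genes was 0.330 to 3.24 in the Ang II hearts and 0.340 to 3.06 in the Tec hearts.

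Anxa6, Anxa7 and Anxa11 were the steadiest members. Anxa6 (ENSMUSG00000018340, chromosome 11 from 54979108 to 55033445), an annexin with a duplicated core that is found in cardiomyocytes, measured 63.7, 57.1 and 44.7 FPKM in the Ang II hearts and 41.6, 51.6 and 43.1 in the Tec hearts. It was the member in which Ang II heart 1, and not heart 2 of either group, was the highest heart. The means were 55.2 ± 9.64 (SD, n = 3) and 45.4 ± 5.41 (SD, n = 3), a log2 fold change of -0.27 with a standard error of 0.16 (limma adjusted p-value 0.371), which was -0.026 once libraries were scaled by median ratios.

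Anxa7 (ENSMUSG00000021814, chromosome 14 from 20455260 to 20480133), also called synexin and linked to calcium handling and exocytosis, was at 15.6, 16.5 and 10.15 FPKM with Ang II and at 12.1, 12.3 and 11.3 FPKM with Ang II + Tec. All 3 treated hearts fell between Ang II heart 3 and the other Ang II hearts. The log2 fold change was -0.20 (standard error 0.18, limma adjusted p-value 0.526), with the opposite sign once libraries were scaled by median ratios (0.032) and after quantile normalization (0.036).

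Anxa11 (ENSMUSG00000021866, chromosome 14 from 25842156 to 25886804), a tether of RNA granules to lysosomes that binds the calcium sensor PDCD6, was at 5.63, 5.90 and 4.53 FPKM with Ang II and at 4.38, 6.92 and 5.03 FPKM with Ang II + Tec. The highest heart was a treated one. The log2 fold change was 0.0075 with a 95% interval of -0.40 to 0.41 (limma adjusted p-value 0.980), and its sign turned without Ang II heart 3 (-0.089), without Tec heart 2 (-0.15) and with library weights (-0.14). The antisense gene Anxa11os, which overlaps Anxa11, was listed at 0 in all 6 libraries.

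Anxa8 (ENSMUSG00000021950, chromosome 14 from 34085981 to 34100571), known as a product of squamous and other lining epithelia, was near the limit of testing. It was at 0.940, 2.10 and 0.190 FPKM with Ang II and at 0.350, 1.46 and 0.420 FPKM with Ang II + Tec, so that Tec heart 2 was the heart next to the highest, above Ang II heart 1. The highest value was 11.1 times the lowest, against 1.53 times for Anxa6. The log2 fold change was -0.20 (standard error 0.37, limma adjusted p-value 0.755), with the opposite sign without Ang II heart 2 (0.14) and with a covariate for atrial transcripts (0.11). Markers of the mesothelium, the lining of the outer heart, were highest in Ang II heart 2 and Tec heart 2, which also held the most Anxa8. The summed FPKM of 6 mesothelial genes was 2.04, 13.02 and 0.610 in the Ang II hearts and 1.53, 18.9 and 4.63 in the Tec hearts, with no defining marker at 0 in all libraries. This sum, unlike Anxa8, was lower in Ang II heart 1 than in Tec heart 3. Mesothelin (Msln) itself was at 0.370, 4.11 and 0.0600 FPKM and at 0.230, 3.77 and 0.870 FPKM. Transcripts of adipocytes, and those of the smooth muscle genes Acta2, Myh11, Tagln and Cnn1, were also highest in Ang II heart 2 and Tec heart 2. The summed FPKM of 5 adipocyte genes was 3.28, 10.4 and 0.550 in the Ang II hearts and 0.150, 46.4 and 1.41 in the Tec hearts. That of 7 smooth muscle and pericyte genes was 259, 462 and 228 in the Ang II hearts and 188, 348 and 196 in the Tec hearts. Rgs5, Pdgfrb and Kcnj8 of this list ran otherwise. Rgs5 was lowest of all hearts in Tec heart 2 (91.4 FPKM), and Kcnj8 was highest in Tec heart 1 (19.3 FPKM). The part of these cells in the Anxa8 values was not tested.

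Ang II heart 3 was the lowest of its group and Tec heart 2 the highest of its group in 9 of 9 annexins. Of all genes tested 72.5% showed the former, 69.8% the latter and 55.2% both. In 7 of the 9, all but Anxa8 and Anxa11, both Ang II hearts 1 and 2 lay above the remaining 4, as they did in 49.7% of all genes tested. The mean of replicates 1 and 2 was 3.68 times Ang II heart 3 for Anxa1, 2.86 times for Anxa2, 1.97 times for Anxa5 and 1.35 times for Anxa6. The spread between mice was wider in the Ang II hearts, with a coefficient of variation of 67.8% for Anxa1 and 52.9% for Anxa2, against 30.5% and 21.5% in the Tec hearts. Anxa11 was the exception, at 13.6% and 24.2%.

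**Figure D2:**
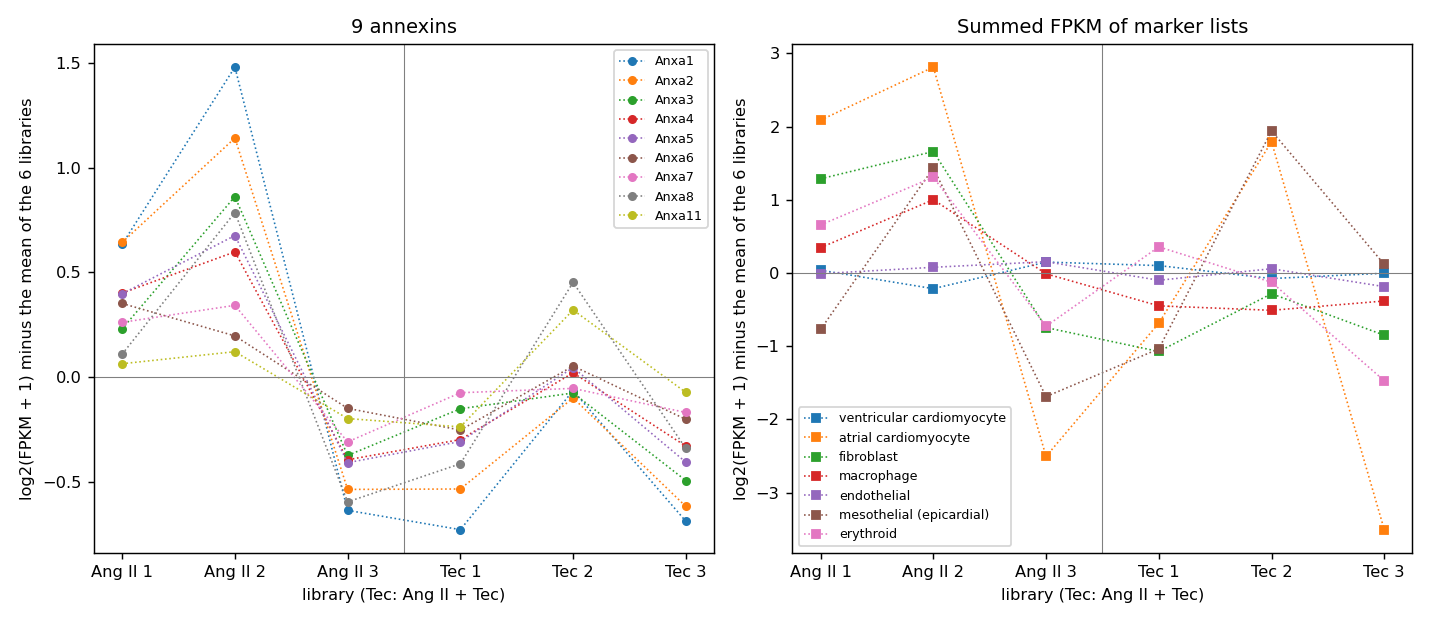
Left, log2(FPKM + 1) of each annexin minus its mean over the 6 libraries; right, the same for the summed FPKM of marker lists, with dotted lines that only join the points of 1 gene or list. Anxa1 spans the widest range on the left, and the atrial sum spans the widest range on the right, high in Ang II hearts 1 and 2 and Tec heart 2. Most of the atrial sum is Nppa, which the authors also measured as a hypertrophy gene. Nppa was at 906 FPKM in Tec heart 1, where Myl7 was at 0, so this sum is not a measure of atrial tissue alone.

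The make-up of the annexin pool moved with the same hearts. Anxa1 made up 9.69%, 14.7% and 6.44% of the summed annexin FPKM in the Ang II hearts and 5.90%, 7.65% and 6.24% in the Tec hearts. Anxa2 made up 15.5%, 18.2% and 11.3%, and 11.2%, 12.0% and 10.8%. Anxa5 held a steady share of 24.8% to 26.3% in all 6 hearts, while Anxa6 made up 30.8%, 22.8% and 37.3%, and 34.1%, 33.0% and 36.3%. These shares are unchanged when a library is multiplied by a single factor. By them Ang II hearts 1 and 2 held more Anxa1 and Anxa2 relative to the other annexins, and Ang II heart 3 was close to the treated hearts.

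Leaving out Ang II heart 3 changed the outcome. Without this heart 7 of the 9 annexins, all but Anxa8 and Anxa11, were lower with Tec at a limma adjusted p-value below 0.05, where 28.8% of all genes tested passed it in either direction. The log2 fold change was then -1.55 for Anxa1 (standard error 0.29, limma adjusted p-value 0.0107) and -1.31 for Anxa2 (standard error 0.20, limma adjusted p-value 0.00692), and these 2 were called, against 4.26% of all genes tested. Nothing in the labels sets this heart apart, so the fit with all 6 hearts stands as the result. Leaving out any of the other 5 hearts left 0 of 9 annexins past that limit, where 2 to 7 of the 13089 genes tested passed it. Without Ang II heart 2 the log2 fold changes were smaller than with all 6 hearts. They were -0.49 for Anxa1, -0.47 for Anxa2, -0.17 for Anxa3, -0.21 for Anxa4 and -0.22 for Anxa5. Library weights let limma trust some libraries less than others, and their estimate stopped before its convergence tolerance. With them 5 of 9 annexins passed the same limit (Anxa1 to Anxa5), where 27.1% of all genes tested passed. Of these 5, Anxa1, Anxa2 and Anxa3 were called, where 3.99% of all genes tested were.

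Atrial transcripts were one measure that moved with the annexins. Among the 3 hearts with Myl7 above 100 FPKM, Tec heart 2 differed from the mean of Ang II hearts 1 and 2 by -1.12 for Anxa1, -0.99 for Anxa2, -0.62 for Anxa3, -0.48 for Anxa4, -0.49 for Anxa5, -0.22 for Anxa6, -0.36 for Anxa7, 0.0045 for Anxa8 and 0.23 for Anxa11 on the scale of log2(FPKM + 1). Among the 3 hearts without, the mean of Tec hearts 1 and 3 differed from Ang II heart 3 by -0.072 for Anxa1, -0.040 for Anxa2, 0.052 for Anxa3, 0.081 for Anxa4, 0.052 for Anxa5, -0.078 for Anxa6, 0.19 for Anxa7, 0.22 for Anxa8 and 0.043 for Anxa11. With 1 heart in 1 arm of each set these values have no test. A limma fit of all 6 hearts took the presence of atrial transcripts as a covariate, chosen after seeing the data. The log2 fold change was then -0.60 for Anxa1 (standard error 0.31) and -0.52 for Anxa2 (standard error 0.25). In this fit 0 of 9 annexins had a limma adjusted p-value below 0.05 (lowest 0.285), where 13 of the 13089 genes tested did.

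**Figure D3:**
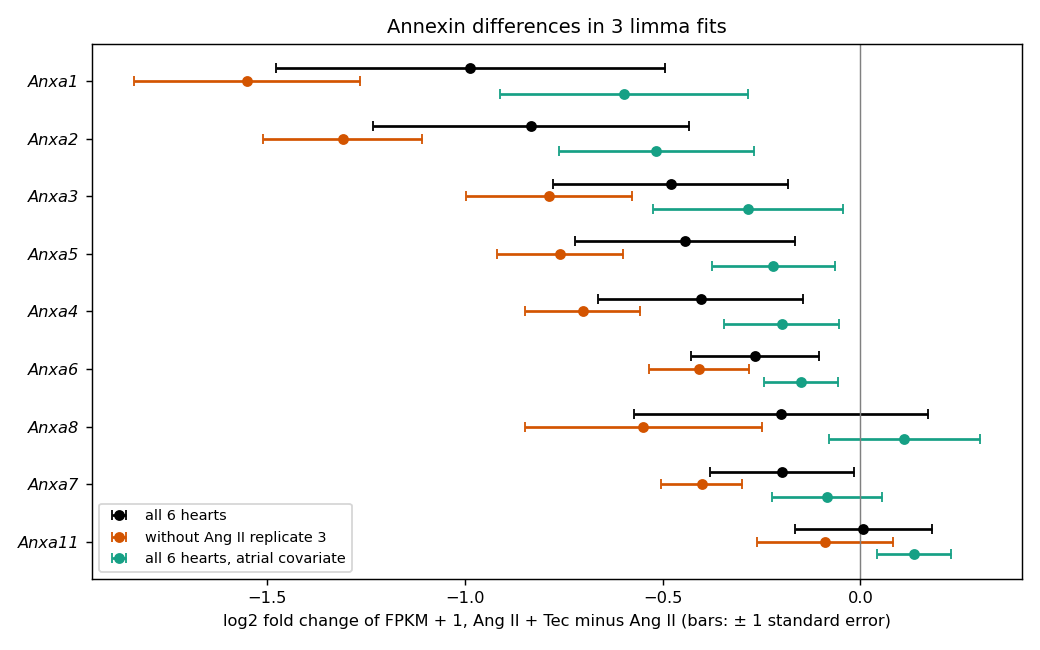
Log2 fold change of FPKM + 1 (Ang II + Tec minus Ang II) with its standard error for the 9 annexins in 3 limma fits: all 6 hearts, without Ang II heart 3, and all 6 hearts with a covariate for atrial transcripts. Values for Anxa1 run from -1.55 to -0.60 over these fits, and those of Anxa8 and Anxa11 lie on both sides of 0.

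Fibroblast transcripts moved with them too, and macrophage transcripts only in part. The summed FPKM of 9 fibroblast genes, among them Col1a1, Postn and Pdgfra, was 895, 1159 and 218 in the Ang II hearts and 174, 301 and 203 in the Tec hearts, high in the same hearts as Anxa1 and Anxa2. All 9 were detected, and 9 of 9 had a lower mean with Tec, where 80% of all genes tested were lower. None was called (0 of 9), and 5 were lower at an unadjusted p-value under 0.05, where 16.5% of all genes tested were. The summed FPKM of 9 macrophage genes was 267, 421 and 209 in the Ang II hearts and 154, 147 and 161 in the Tec hearts. By this sum the groups did not overlap, and Tec heart 2, the treated heart with the most of each annexin, was the lowest. Lyz2 made up most of the sum, at 163, 290 and 135 FPKM with Ang II and 107, 97.0 and 107 FPKM with Ang II + Tec. Tec heart 2 was also the lowest treated heart for Adgre1 and Fcgr1, but the highest for Cd68, Mrc1, Cd163 and Ptprc. The groups overlapped for Adgre1, Fcgr1, Cd163 and Ptprc. Of the 8 macrophage genes tested, 8 were lower, 0 of them called and 7 at an unadjusted p-value under 0.05, against 16.5% of all genes tested in this direction. Endothelial transcripts, at 192 to 215 and 170 to 201 by the sum of 8 genes, were nearly level. Of these 8 genes 7 were lower, where 80% of all genes tested were, and 0 were called. Kdr and Egfl7 were lower without overlap between the groups, as were 18.9% of all genes tested. These were also the 2 lower at an unadjusted p-value under 0.05, where 16.5% of all genes tested were. Erythroid transcripts, by the sum of 5 genes, were at 648, 1018 and 248 and at 526, 376 and 147, with 5 of 5 lower and 0 called. The part of these cell types in the annexin values was not tested.

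No gene of an annexin-binding protein was called. Of 10 such genes 9 were lower with Tec, where 80% of all genes tested were lower, and 4 of them were lower at an unadjusted p-value under 0.05, where 16.5% of all genes tested were, with a median log2 fold change of -0.47, and -0.26 once libraries were scaled by median ratios. S100a11, whose product binds the tail of annexin A1, was at 76.6, 131 and 28.3 FPKM with Ang II and at 23.9, 45.6 and 23.6 FPKM with Ang II + Tec (log2 fold change -1.13, standard error 0.53). S100a10, the partner of Anxa2, was at 34.9, 51.3 and 24.3 FPKM with Ang II and at 19.7, 25.7 and 23.9 FPKM with Ang II + Tec (-0.60, standard error 0.26). In both, as in Anxa1 and Anxa2, the highest hearts were Ang II heart 2, Ang II heart 1 and Tec heart 2, in that order.

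S100a6 and S100a4 showed the widest differences of the list. S100a6, which encodes a binder of annexin A11, was at 19.9, 39.8 and 9.01 FPKM with Ang II and at 6.76, 10.0 and 6.56 FPKM with Ang II + Tec (log2 fold change -1.24, standard error 0.46, limma adjusted p-value 0.240). S100a4, a gene of motile and mesenchymal cells, was at 16.6, 30.7 and 3.83 FPKM and at 2.82, 4.65 and 3.34 FPKM (-1.61, standard error 0.61, limma adjusted p-value 0.243). The calcium sensors of the annexins with long tails differed less: Pdcd6 by -0.21 (standard error 0.13) and the sorcin gene Sri by -0.51 (standard error 0.18), neither of them called.

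**Figure D4:**
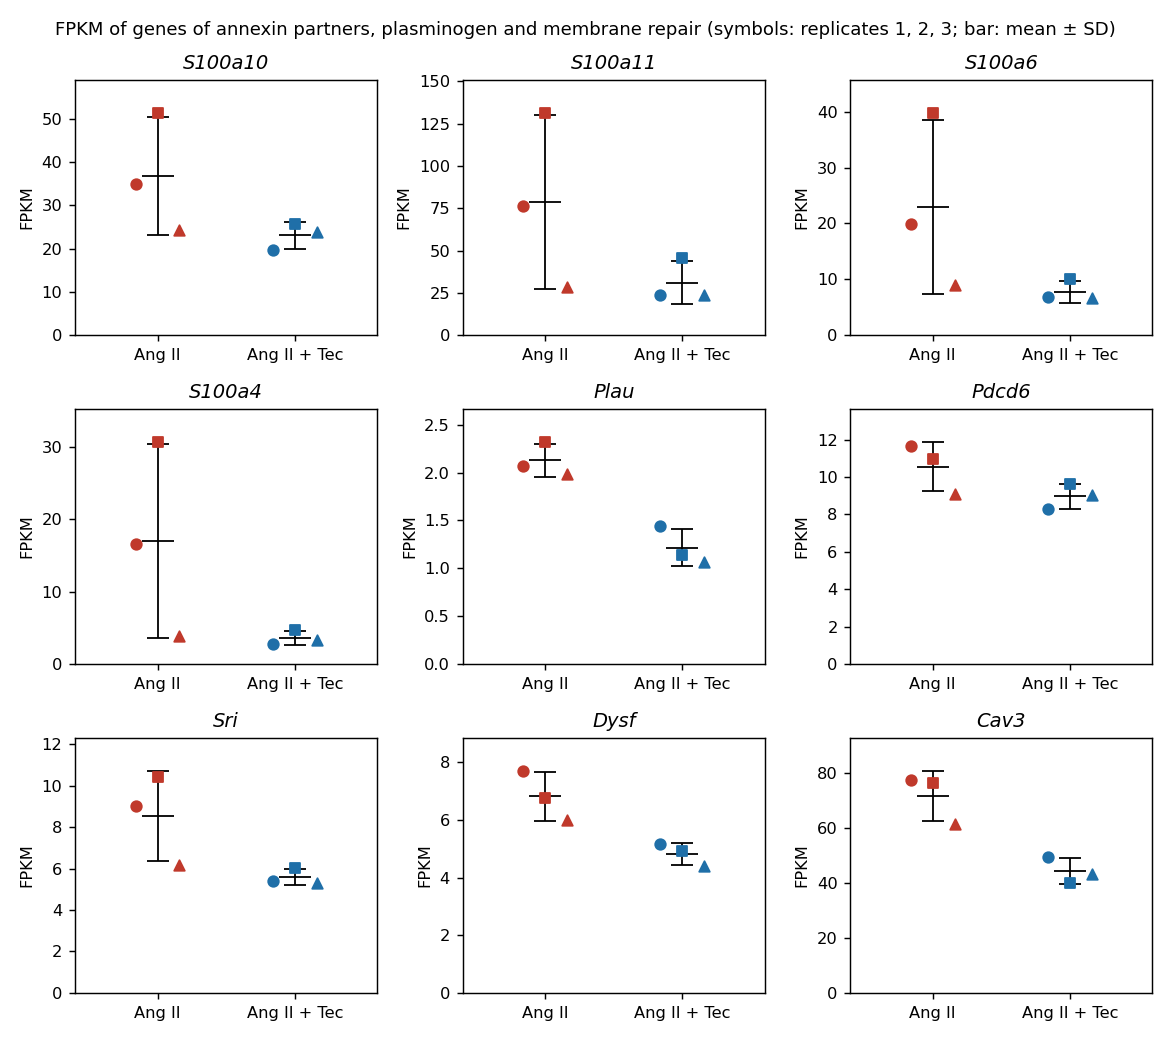
FPKM of 9 genes that encode annexin partners, the plasminogen activator Plau and membrane repair proteins, in 3 Ang II hearts (red) and 3 Ang II + Tec hearts (blue), with the mean ± SD and axes from 0. Cav3, Dysf, Sri and Plau are the panels in which all 3 Ang II hearts lie above all 3 treated hearts.

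The receptors of Anxa1 were scarcely detected. Fpr1 was at 0 to 0.1 FPKM, Fpr2 at 0 to 0.26 FPKM, and Fpr3 was listed at 0 in all 6 libraries, so none was tested. Of 11 genes of phospholipase A2, which Anxa1 restrains, and of the eicosanoid enzymes that use its product, 6 were tested and 5 were lower, 0 of them called, where 80% of all genes tested were lower. The cytosolic phospholipase gene Pla2g4a was at 2.03, 3.60 and 0.490 FPKM with Ang II and at 0.770, 1.38 and 0.650 FPKM with Ang II + Tec (log2 fold change -0.53, standard error 0.38). Alox5ap, which presents arachidonate to 5-lipoxygenase in myeloid cells, was at 8.38, 11.5 and 7.45 FPKM with Ang II and at 3.91, 4.71 and 5.69 FPKM with Ang II + Tec, without overlap between the groups (-0.80, standard error 0.18, limma adjusted p-value 0.188). The prostacyclin synthase gene Ptgis differed by -1.12 (standard error 0.66).

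Glucocorticoid-responsive genes, the class to which Anxa1 belongs, were found on both sides of 0. Of 12 genes 8 were lower and 4 higher, 0 of them called, where 80% of all genes tested were lower, with a median log2 fold change of -0.060, and of 0.18 once libraries were scaled by median ratios. Tsc22d3, which encodes the glucocorticoid-induced leucine zipper, was at 58.3, 54.8 and 39.3 FPKM with Ang II and at 25.9, 45.95 and 44.05 FPKM with Ang II + Tec (-0.41, standard error 0.25). Cebpd was lower by -0.79 (standard error 0.31) and Klf9 higher by 0.28 (standard error 0.13), both below the threshold for a call.

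Genes of the plasminogen system, on which the complex of Anxa2 and S100A10 acts, were lower in all 6 that were tested (against the same 80%), with 0 called and a median log2 fold change of -0.45, or -0.32 after rescaling. Plau, which encodes urokinase, was at 2.07, 2.32 and 1.99 FPKM with Ang II and at 1.44, 1.14 and 1.07 FPKM with Ang II + Tec. Here the groups did not overlap and Ang II heart 3 stayed with its group (-0.50, standard error 0.12, limma adjusted p-value 0.188). Serpine2, an inhibitor of thrombin and urokinase, differed by -0.92 (standard error 0.42).

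Genes of plasma membrane repair, in which annexins seal wounds together with dysferlin, were lower in 12 of 12 (80% of all genes tested were lower), with 0 called and a median log2 fold change of -0.30, but -0.076 after rescaling. Non-overlapping groups were found for 4 of the 12, against 18.9% of all genes tested that did not overlap and were lower. Cav3, the caveolin of muscle, was at 77.4, 76.2 and 61.2 FPKM with Ang II and at 49.55, 40.1 and 43.1 FPKM with Ang II + Tec (-0.68, standard error 0.14, limma adjusted p-value 0.180). Dysf, the dysferlin gene, was at 7.71, 6.78 and 6.01 FPKM and at 5.16, 4.91 and 4.41 FPKM (-0.42, standard error 0.13, limma adjusted p-value 0.22). These muscle genes did not follow the order of hearts of Anxa1, as Tec heart 2 was not the highest treated heart in either. Chmp4b, a subunit of the ESCRT machinery, differed by -0.44 (standard error 0.14), and Myof, the myoferlin gene, by -0.50 (standard error 0.28).

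Genes of phosphatidylserine exposure and of the uptake of dying cells, which read the same lipid as Anxa5, were lower in 11 of the 12 tested (against the same 80%), with 0 called and a median log2 fold change of -0.44, or -0.23 after rescaling. Axl, a receptor for bridged phosphatidylserine, was at 30.7, 37.25 and 14.5 FPKM with Ang II and at 15.4, 22.5 and 15.1 FPKM with Ang II + Tec (-0.53, standard error 0.34). The bridging genes Mfge8 and Pros1 differed by -0.53 (standard error 0.22) and -0.55 (standard error 0.22).

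The genes outside the family with the most similar profiles were sought over the 6 libraries. The mean centred profile of the 9 annexins was followed most closely by Chst12, Golim4, Rnh1, Cdr2 and Plekho2, with root mean square differences of 0.020, 0.021, 0.033, 0.035 and 0.036 on the log2 scale, where the profile itself had a root mean square of 0.41. For single members the nearest gene was Adamtsl2 for Anxa1 (0.088), C1qtnf7 for Anxa2 (0.051), the pseudogene Rps27a-ps2 for Anxa3 (0.075), Tm7sf3 for both Anxa4 (0.021) and Anxa5 (0.037), Otub1 for Anxa6 (0.023), Rap2c for Anxa7 (0.018) and Smim1 for Anxa8 (0.077). With 13089 genes and 6 libraries such nearness is a description of these hearts.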

How the data were processed

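Poly(A) RNA of 6 mouse hearts was sequenced as paired ends. The authors trimmed the reads with Cutadapt and deposited FPKM per gene and library, with no counts, so the reads per library and the counting error cannot be had from these values and the spread between hearts is the error used. The submitters' processing notes list Bowtie 0.12.2, HISAT2 2.0, StringTie 1.3.0 and mm8 without their roles. The gene coordinates equal those of GENCODE M21 (GRCm38) for all 9 members and for 90.6% of the genes in both, so GRCm38 was used.

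Values of log2(FPKM + 1) went into limma 3.58.1 under R 4.3.3, with lmFit followed by trended eBayes,, 3 Ang II + Tec hearts against 3 Ang II hearts, without covariate, over genes that reached 0.5 FPKM in 3 or more libraries, with Benjamini-Hochberg adjustment over all of them. This scale understates the change of low genes. The fit was tested on simulated data. No pair of libraries held the same values.

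The members and gene lists were chosen with earlier results of these data known. All members are named, as are the 3 tested genes of each list with the largest absolute log2 fold change, known partners, and the genes with the smallest root mean square difference in centred profile. Some genes that this rule names are not reported here. Alternatives changed the pseudocount, filter, scaling, block, weights, variance trend and covariate, or left out 1 heart. Strand was not stated for the counting, so antisense reads cannot be told apart. Tables were handled with pandas 2.3.3 and drawn with matplotlib 3.10.9.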

Additional observations from a re-analysis of the deposited data

How the results depend on the processing

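Of the 13089 genes, 21 were called. The number was 3 with no filter other than an FPKM above 0 in at least 1 library, 522 with library weights (whose estimate stopped before its convergence tolerance), 13 with the atrial covariate, chosen after seeing the data, and 2 to 557 without 1 heart, the highest without Ang II heart 3. With the weights 5 annexins passed an adjusted p-value under 0.05, Anxa1 (-1.69), Anxa2 (-1.37), Anxa3 (-1.0), Anxa4 (-0.70) and Anxa5 (-0.82), beside 27.1% of all genes tested. Without 1 heart the log2 fold changes ranged from -1.55 to -0.49 for Anxa1, -1.31 to -0.47 for Anxa2, -0.79 to -0.17 for Anxa3, -0.70 to -0.21 for Anxa4, -0.76 to -0.22 for Anxa5, -0.41 to -0.16 for Anxa6, -0.40 to -0.075 for Anxa7, -0.55 to 0.14 for Anxa8 and -0.15 to 0.13 for Anxa11. Signs turned for Anxa7 by the median of ratios (0.032) and by quantile normalization (0.036), for Anxa8 with the atrial covariate (0.11) and for Anxa11 with the weights (-0.14). The cause was not tested. Under the pseudocount, filter, variance trend and mitochondrial scaling alternatives no annexin changed direction or passed, and Anxa8 fell below the stricter filter. Nothing in the labels pairs the hearts by replicate number. The deviations of hearts with the same number correlated at -0.039, 0.43 and 0.38 over genes. Those of hearts with different numbers correlated at -0.44 to 0.23. These values do not settle whether the numbers pair the hearts. With a replicate block 22 genes were called and 0 annexins, the lowest adjusted p-value of an annexin being 0.132 (limma). With 3 hearts a group and no counts, differences of the size of the standard errors given could not be resolved.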
